A study of Mus musculus with 8 samples.

Results

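The RELT family comprises 3 genes, Relt, Rell1 and Rell2, and all 3 were among the 22609 genes of the table. The members were taken by symbol, and the family was selected on the measured difference of Rell1, which had been seen to be lower in Brca1 heterozygous (Het) than in wild type (WT) cells, so the Het against WT values of its members are given as a description and no test of them is used. RNA was sequenced from naive CD8 T cells, the T cells that have not yet met antigen, of the spleens of 3 month old C57BL/6 mice. The groups were 4 Het libraries, numbered 31, 53, 56 and 139, and 4 WT libraries, numbered 45, 54, 57 and 65. The labels name no agent and no other allele, and they do not give how the Brca1 allele was made, which cells carry it, or whether each library came from its own mouse.

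Relt (receptor expressed in lymphoid tissues) encodes a membrane protein of the tumour necrosis factor (TNF) receptor superfamily, and Rell1 and Rell2 encode membrane proteins named for their homology to it. The human proteins bind one another and the stress kinases OSR1 and SPAK, RELT also binds the adaptor TRAF1, and overexpressed RELT engages the p38 and NF-kB routes. In mouse T cells, loss of Relt has been linked to stronger early responses. No ligand is firmly established for the family.

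Rell1 lies on chromosome 5 and Relt on chromosome 7 of the mouse. The 250 bases before the RefSeq start sites of Rell1 and Relt are shown because the 2 genes stood at opposite ends of the family in the difference between genotypes. They are RefSeq sequences of GRCm38.p6, at chr5:63968898-63969147 for Rell1 and chr7:100863414-100863663 for Relt, both on the minus strand and written 5′ to 3′, with matches to the GC box GGGCGG on either strand in capitals. GENCODE M21 places the 5′ end of Relt at base 100863446, so the last bases of the Relt window lie within its GENCODE gene.
Rell1: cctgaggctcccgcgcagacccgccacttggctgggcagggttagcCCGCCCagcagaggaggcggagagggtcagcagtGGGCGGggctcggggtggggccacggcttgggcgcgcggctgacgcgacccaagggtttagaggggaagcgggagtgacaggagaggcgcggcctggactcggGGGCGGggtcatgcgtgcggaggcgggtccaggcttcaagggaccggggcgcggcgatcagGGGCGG
Relt: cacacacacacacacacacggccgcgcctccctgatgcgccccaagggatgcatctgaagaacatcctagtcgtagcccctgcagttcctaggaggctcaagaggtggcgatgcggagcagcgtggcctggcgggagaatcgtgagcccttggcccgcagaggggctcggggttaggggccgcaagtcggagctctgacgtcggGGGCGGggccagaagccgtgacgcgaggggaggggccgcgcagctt

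The Rell1 window held 4 GC boxes, beginning 204, 170, 67 and 6 bases before the start, and the Relt window held 1, beginning 46 bases before it. Among 32851 promoter windows of this length in RefSeq, 32.7% held at least 1 GC box and 4.09% held 4 or more. Both windows were rich in G and C, at 74.4% in Rell1 and 67.6% in Relt, with 26 and 22 CpG dinucleotides. The motif TGACG, a part of the cyclic AMP response element TGACGTCA, had 1 match in Rell1 and 2 in Relt. It was present in 17.8% of windows, and 3.9% held 2 or more. Neither window held the whole element, and neither held a match to the AP-1 motif, searched as TGANTCA on both strands. No TATA box, searched as TATAAA on both strands, was found in either window, and 12.4% of the windows of all genes held that motif. These matches describe letters in the windows and show no binding.

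The deposited values had 1 shared distribution in the 8 libraries, so totals carry no information on depth. Genes above 0 numbered 13863 to 14656 in Het and 15358 to 15569 in WT libraries. Distinct values up to 100, a guide to the reads behind a value of 100, numbered 74 to 121 in Het and 106 to 128 in WT libraries. The lowest value of any family member was 214.2. Brca1 itself was at 126.7 to 174.5 in Het and 148.6 to 208.1 in WT libraries, which overlapped (limma adjusted p = 0.742), and a value per gene cannot check the genotype labels. The genes of the labelled cell type were high in every library, such as Cd8a, a chain of the CD8 coreceptor, at 45657.9 to 50265.2 in Het and 40591 to 46876.7 in WT libraries. RNA of other spleen cells was present too: the 10 B cell markers summed to 3813.9 to 19126.8 in Het and 3186.5 to 8191.2 in WT libraries. In bulk RNA, fewer cells of a type and less RNA per cell cannot be told apart.

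Relt, the founding receptor of the family, was the most abundant member and had means in the genotypes that differed by less than the spread between libraries. Its normalized read count was 2030.4, 2147.9, 2262.7 and 1807.2 in Het 31, 53, 56 and 139, and 2086.7, 2082, 2185.8 and 2366.4 in WT 45, 54, 57 and 65. The genotypes overlapped, with Het 139 lowest and WT 65 highest. The means were 2062 ± 195 in Het and 2180 ± 133 in WT (SD, n = 4 each), a fitted log2 difference (Het minus WT, on log2 of the value plus 1) of -0.08 with SE 0.09 and a 95% interval from -0.29 to 0.13.

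Rell1, the RELT-like member 1, was lower in each Het library than in any WT library. Its normalized read count was 489.7, 677.1, 621.7 and 532.7 in Het 31, 53, 56 and 139, and 1108.8, 1117.7, 1056.2 and 1070.5 in WT 45, 54, 57 and 65. The highest Het library stood at 64.1% of the lowest WT library, so the genotypes were separated by a gap wider than the spread of the WT values. As a share of the WT mean, the Het libraries were at 45.0%, 62.2%, 57.1% and 48.9% in the order above. The means were 580 ± 84.8 in Het and 1088 ± 29.6 in WT (SD, n = 4 each), and the fitted log2 difference was -0.92 with SE 0.12, a 1.89-fold lower level in Het.

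The WT values of Rell1 were close to each other. Their coefficient of variation was 2.72%, against 14.6% in Het, and the highest WT value was 1.06 times the lowest, against 1.38 times in Het. Of the 3686 tested genes with a mean level within a factor of 2 of that of Rell1, 98.1% had a larger SD among WT libraries and 49.2% a larger SD among Het libraries. Rell1 was chosen for its difference in these same values, and a small spread favours such a choice. These shares are therefore a description and are not read as a trait of the gene.

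Rell2, the RELT-like member 2, had the lowest mean count and varied most within each genotype in proportion to its mean. Its coefficient of variation was 21.0% in Het and 21.2% in WT. Its normalized read count was 256.6, 214.2, 345.2 and 321 in Het 31, 53, 56 and 139, and 385.2, 442.4, 409.8 and 260.6 in WT 45, 54, 57 and 65. WT 65 lay within the Het range, and the other WT libraries stood above all Het libraries. The means were 284 ± 59.8 in Het and 374.5 ± 79.5 in WT (SD, n = 4 each), a fitted log2 difference of -0.39 with SE 0.21 and a 95% interval from -0.86 to 0.07.

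The values of Rell1 and Rell2 carry a limit of annotation. The libraries were stranded by protocol, but whether the authors counted by strand is not given in the sources used here. In GENCODE M21, 104 of the 3856 exon bases of Rell1 (2.70%) lie over exons of Gm15819, an antisense gene that was not analysed here. For Rell2, 1482 of the 3340 exon bases of Rell2 (44.4%) lie over exons of Fchsd1, a gene on the opposite strand. Fchsd1, which encodes an F-BAR and SH3 domain protein, was at 890.1, 1232.2, 1331.3 and 1182.5 in Het 31, 53, 56 and 139, and 1526.1, 1460, 1472.3 and 1426.4 in WT 45, 54, 57 and 65. It was lower in every Het than in every WT library, with WT 65 the lowest of the WT libraries, and did not pass the test (log2 difference -0.36, limma adjusted p = 0.452). Over the 8 libraries, Pearson's r between Rell2 and Fchsd1 was 0.59 on the log2 scale, and 0.29 once each genotype's mean was subtracted. Whether the overlap added reads to the Rell2 values or took reads from them was not tested.

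**Figure D1:**
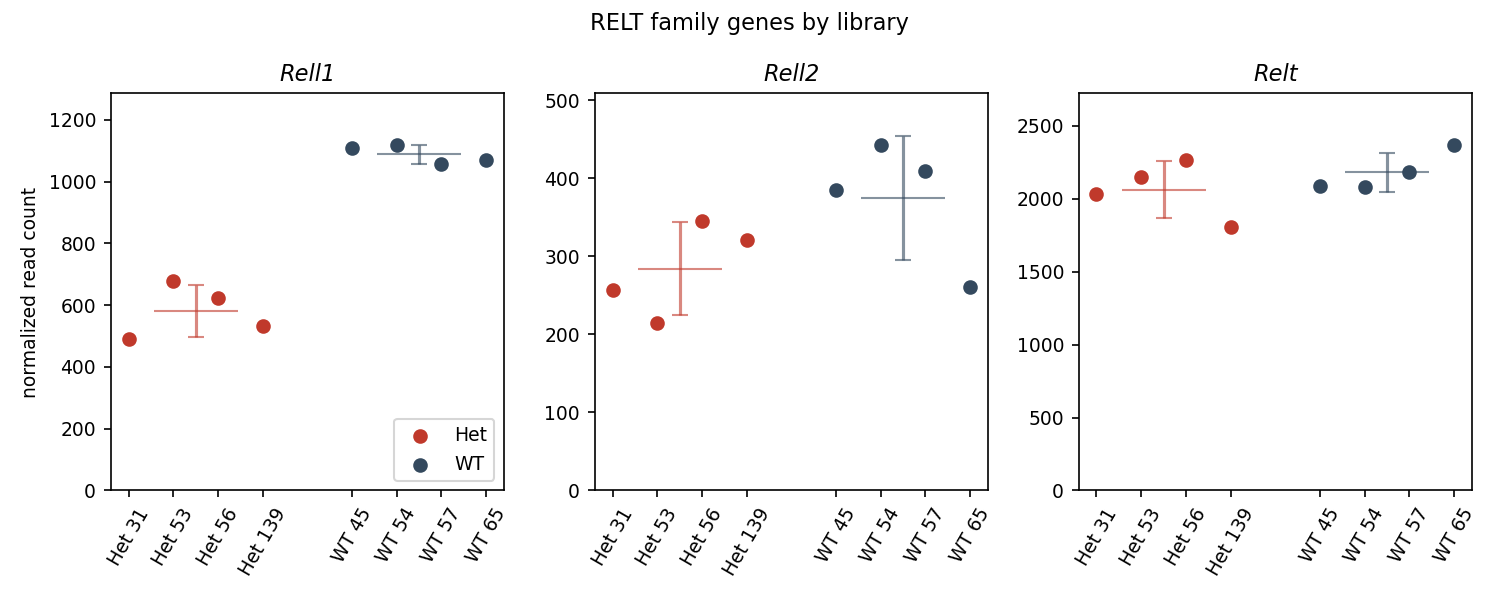
Normalized read count (vertical axis, from 0) of Rell1, Rell2 and Relt in each Het library (red) and each WT library (dark blue), with points for libraries and crosses for the mean ± SD of 4. Rell1 separates the genotypes (489.7 to 677.1 in Het, 1056.2 to 1117.7 in WT), while Rell2 and Relt overlap.

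All 3 members had a fitted difference below 0, as had 48% of the 12048 tested genes. Of the 3 members, 1 (Rell1) passed the limma threshold of an adjusted p under 0.05, where 0.515% of the tested genes did (62 lower and 0 higher in Het), and 1 had genotypes that did not overlap, where 5% of the tested genes did. Because this contrast chose Rell1, nothing is read from these counts. The Rell1 Het mean of 580 compares with a median Het mean of 4.41 over the 62 passing genes, 2 of which had a Het mean at least as high as that of Rell1, itself included. That median lies below the filter's mean of 10, so many of the 62 were tested only through their WT values. The median log2 difference of the 62 was -4.24, and 1 of them had a smaller absolute difference than Rell1.

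**Figure D2:**
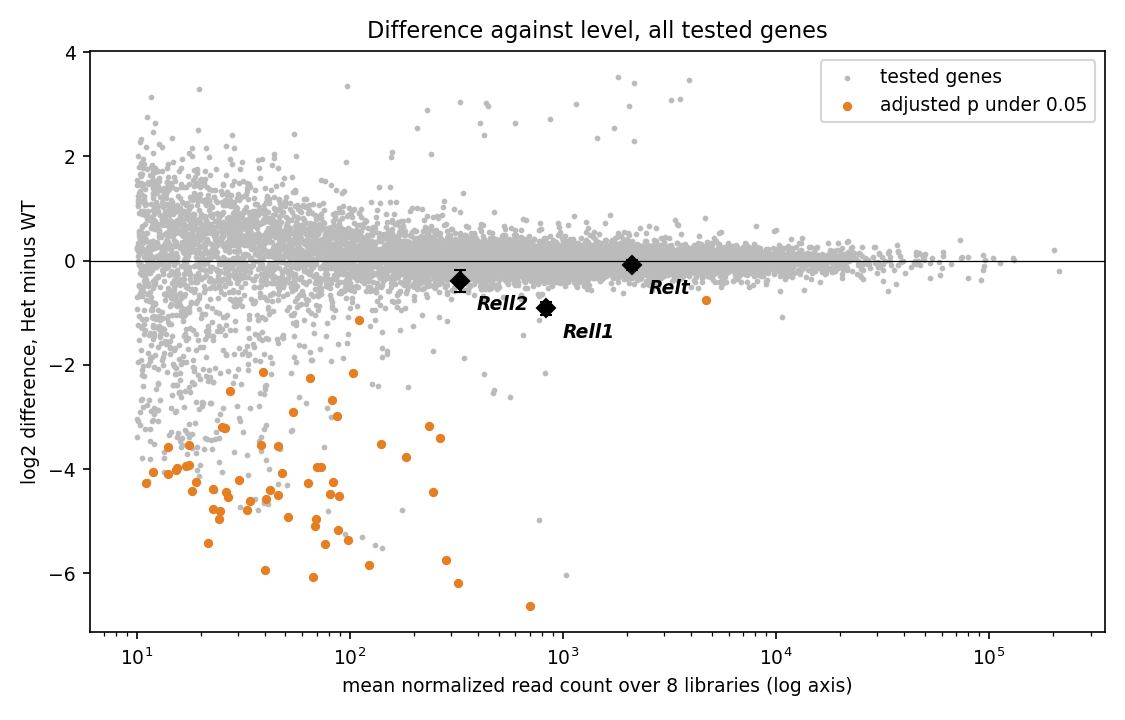
Log2 difference, Het minus WT (vertical axis), against the mean normalized read count over 8 libraries (horizontal log axis) for the 12048 tested genes, with the 62 genes at an adjusted p under 0.05 in orange and the RELT family as black diamonds with SE. Rell1 at -0.92 sits among genes of middle level, apart from the cloud of low genes with larger differences.

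Levels of different genes were compared per kb of exon (GENCODE M21 union exon length, 3280 bases for Relt, 3856 for Rell1 and 3340 for Rell2). Relt was at 629 ± 59.3 in Het and 665 ± 40.6 in WT, Rell1 at 150 ± 21.98 in Het and 282 ± 7.68 in WT, and Rell2 at 85.1 ± 17.9 in Het and 112 ± 23.8 in WT (normalized read count per kb, SD, n = 4 each). On these lengths, the order Relt, Rell1, Rell2 held in each of the 8 libraries. Neighbours in this order did not overlap within a genotype: the lowest Het value of Rell1 per kb was 127 and the highest Het value of Rell2 was 103. The Rell2 length includes the 1482 bases (44.4%) that lie over exons of Fchsd1, and how reads there were counted is not known. Its level per kb, its place after Rell1, its percentile and the shares of the family are uncertain to that extent, which was not tested. Of the summed level of the family per kb, Rell1 made up 17.4% ± 1.74 in Het and 26.7% ± 1.03 in WT, Relt 72.7% ± 2.10 in Het and 62.7% ± 3.03 in WT, and Rell2 9.89% ± 2.17 in Het and 10.6% ± 2.32 in WT (SD, n = 4 each). Among all tested genes with a length, the mean level per kb of Relt was at percentile 79.7, that of Rell1 at 52.0 and that of Rell2 at 36.2.

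Pearson's r on the log2 scale over the 8 libraries was 0.53 between Rell1 and Rell2, 0.48 between Rell1 and Relt and -0.10 between Rell2 and Relt. Once each genotype's mean was subtracted, r was -0.11 between Rell1 and Rell2, 0.45 between Rell1 and Relt and -0.43 between Rell2 and Relt. These are descriptions of 8 libraries that share their normalization.

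The genes whose level over the 8 libraries was most like that of Rell1, of 9425 named genes with a mean of at least 50, were Habp4, Llgl2, Tex2, Dst and Hcn3, with r from 0.960 to 0.982. They were picked by r with Rell1, whose values step between the genotypes, so a step of their own follows from the choice. All 5 were, like Rell1, lower in every Het library than in every WT library, where 5% of all tested genes had no overlap. Their r after subtracting the genotype means was 0.522 to 0.793. Habp4, an RNA-binding protein, averaged 751 ± 39.8 in Het and 954 ± 24.4 in WT. Llgl2, a cell polarity protein, averaged 1129 ± 91.5 in Het and 1483 ± 52.1 in WT. Dst, a cytoskeletal linker abundant in nerve and skin, averaged 44.5 ± 15.6 in Het and 486 ± 157 in WT. It was the only one of the 5 that passed the test (log2 difference -3.41, limma adjusted p = 0.00292), where 0.515% of all tested genes did. The others had log2 differences between -0.40 and -0.35, smaller in size than that of Rell1.

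Rell2 followed a different set of libraries. The 5 genes most like it were Git1, Zyx, Gata3, Stim2 and Aldoart1, with r from 0.971 to 0.991, and 0.970 to 0.987 after subtracting the genotype means. Gata3, a T cell transcription factor, was at 1047.7, 921.1, 1428.2 and 1423.3 in Het 31, 53, 56 and 139, and 1541.1, 1589.4, 1646.9 and 1078.3 in WT 45, 54, 57 and 65. Zyx, a focal adhesion protein, averaged 10171 ± 1401 in Het and 12497 ± 2061 in WT (SD, n = 4 each). In Rell2 and in all 5 of these genes the lowest 3 libraries were Het 31, Het 53 and WT 65, a set that cuts across genotype and that was the lowest 3 in 8.91% of the 10224 other genes with a mean of at least 50. The labels give no batch to set beside it. Genes picked by r with Rell2 are likely to share its lowest libraries.

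Relt followed yet another order. Itga5, Pcnxl3, Cdan1, Nsun5 and Atg4b were most like it, with r from 0.957 to 0.986. Itga5, an integrin chain, was at 216.6, 250.9, 299.7 and 141.7 in Het 31, 53, 56 and 139, and 226.9, 220.4, 265.3 and 304.2 in WT 45, 54, 57 and 65. In Relt and all 5, Het 139 was the lowest library, which is likely for genes picked by r with Relt. The lowest 3 libraries of Relt were Het 139, Het 31 and WT 54. They were the lowest 3 in 2 of the 5, and in 9.90% of the 10224 other genes with a mean of at least 50.

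**Figure D3:**
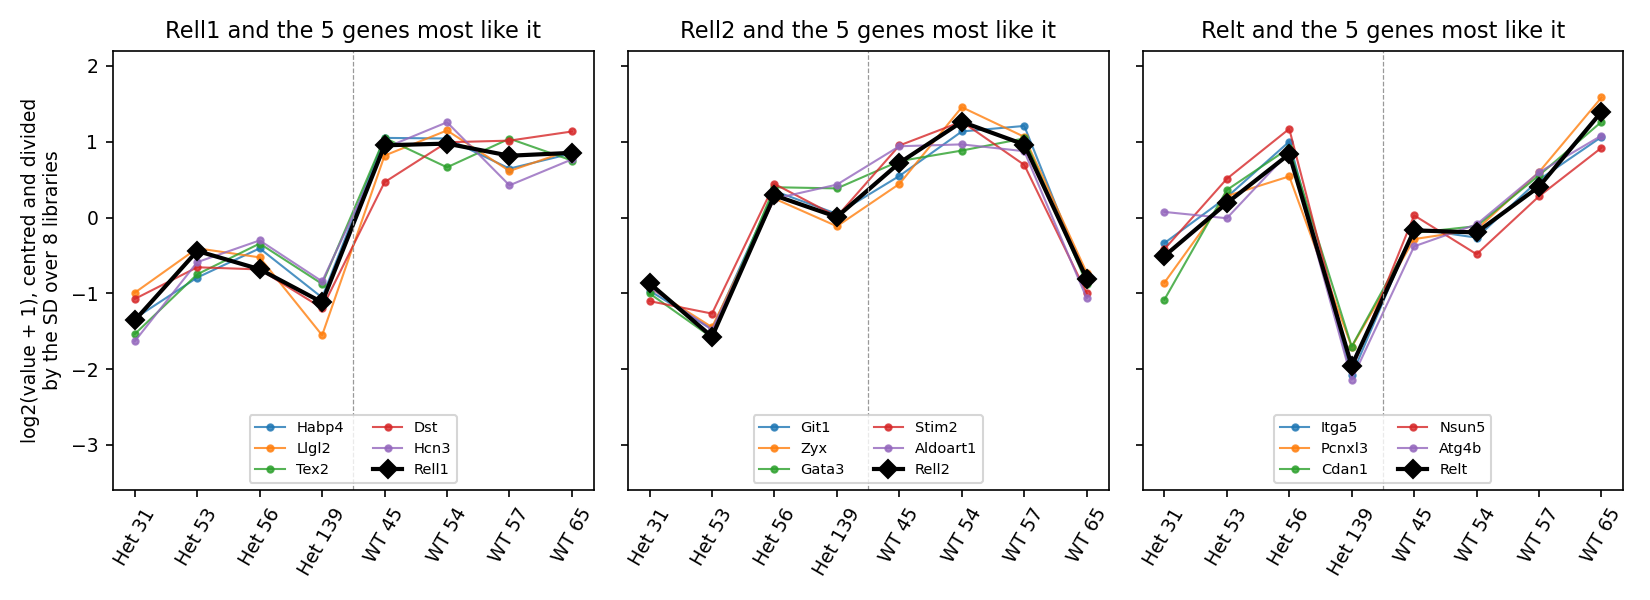
Log2(value + 1) of each family member (black) and of the 5 genes most like it (colours) in the 8 libraries, centred and divided by the SD over libraries (vertical axis), with Het libraries left and WT libraries right of the dashed line. Rell1 and its 5 genes step between genotypes, Rell2 and its 5 are low in Het 31, Het 53 and WT 65, and Relt and its 5 are lowest in Het 139.

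The known binding partners of the family did not pass the test. None of 4 tested partners passed by limma, where 0.515% of all tested genes did, and 1 had an unadjusted p under 0.05, where 8.19% did. Oxsr1, which encodes the kinase OSR1, was at 963, 1230, 958.4 and 964.6 in Het 31, 53, 56 and 139, and 1135.1, 1117.7, 1119.2 and 1194.5 in WT 45, 54, 57 and 65. Of the Het libraries, 3 were below all WT libraries and Het 53 was above them all. Stk39, which encodes SPAK, averaged 283 ± 27.3 in Het and 306 ± 38.2 in WT, and Traf1 averaged 7132 ± 546 in Het and 6374 ± 357 in WT (limma adjusted p = 0.840 and 0.653). Plscr1, a phospholipid scramblase that binds the family in human cells, was at a low 21.8 to 45.1 in Het and 11 to 18.5 in WT libraries, without overlap (log2 difference 0.91, SE 0.40, limma adjusted p = 0.600).

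Across the signalling routes around the family, none of the 82 tested genes passed by limma in either direction. Those genes split into 30 higher and 52 lower in Het, with a median log2 difference of -0.06, beside 6261 higher and 5787 lower and a median of 0.01 over all tested genes. At an unadjusted p under 0.05 there were 4 higher and 2 lower, 6 of 82, where 8.19% of all tested genes had such a p. Of the 2 lower genes, Mapk10 had a Het mean of 1.6, below the filter's mean of 10, so it was tested only through its WT values. The receptors, adaptors, kinases and factors are described in that order.

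Of the other TNF receptor superfamily genes, 21 of 27 were tested, of which 8 had a higher and 13 a lower fitted level in Het (median log2 difference -0.10). Tnfrsf1b, the second TNF receptor and a costimulator of T cells, was at 3805.4, 3282.8, 3130.3 and 3536.7 in Het 31, 53, 56 and 139, and 2715.7, 2758.6, 2874.5 and 2996.6 in WT 45, 54, 57 and 65. It was higher in each Het than in each WT library, by 0.27 on the log2 scale with SE 0.09, and did not pass (limma adjusted p = 0.370). Tnfrsf9, the costimulatory receptor 4-1BB, averaged 398 ± 46.0 in Het and 301 ± 59.4 in WT (limma adjusted p = 0.565). Tnfrsf22, a decoy receptor for the death ligand TRAIL, averaged 515 ± 63.4 in Het and 610 ± 57.1 in WT (limma adjusted p = 0.653).

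Of the 12 TRAF and death domain adaptors, 5 were higher and 7 lower (median -0.01). Traf4 averaged 2261 ± 380 in Het and 2758 ± 186 in WT (limma adjusted p = 0.543). Birc3, an inhibitor of apoptosis that binds TRAF proteins, averaged 2486 ± 254 in Het and 2158 ± 67.8 in WT without overlap, and its relative Birc2 averaged 3669 ± 116 in Het and 3239 ± 325 in WT (limma adjusted p = 0.609 and 0.646). Both inhibitors were thus higher on average in Het by 0.20 and 0.18 on the log2 scale, and neither passed.

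In the WNK and SPAK/OSR1 route, which controls ion transporters and holds the kinases bound by RELT, 4 of 12 tested genes were higher and 8 lower (median -0.13). The chloride cotransporters Slc12a4 and Slc12a2 averaged 840 ± 159 and 587 ± 145 in Het, and 1006 ± 56.6 and 702 ± 77.7 in WT. Cab39l, a scaffold that activates these kinases, averaged 1491 ± 263 in Het and 1289 ± 70.8 in WT. Their limma adjusted p lay between 0.649 and 0.690.

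In the p38 and JNK cascade 8 of 22 tested genes were higher and 14 lower (median -0.03). Mapkapk2, a kinase activated by p38, averaged 2763 ± 449 in Het and 2254 ± 365 in WT (limma adjusted p = 0.632). The members at the ends of the list had very low values: Mapk10, the JNK form of nervous tissue, was at 0 to 5.5 in Het and 4.6 to 36.1 in WT, and Mapk12 at 18.2 to 43.6 in Het and 3.1 to 26.3 in WT libraries (limma adjusted p = 0.290 and 0.588). Mapk10 was tested only through its WT values, so nothing is read from its direction.

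Among 14 NF-kB factors and regulators 4 were higher and 10 lower (median -0.08). Cyld, a deubiquitinase that restrains the route, averaged 7615 ± 580 in Het and 6775 ± 766 in WT. Ikbkg, the regulatory subunit of the IkB kinase, averaged 2735 ± 446 in Het and 2373 ± 152 in WT, and Map3k14, the kinase of the noncanonical branch, 4338 ± 318 in Het and 4731 ± 278 in WT. Their limma adjusted p lay between 0.662 and 0.706.

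**Figure D4:**
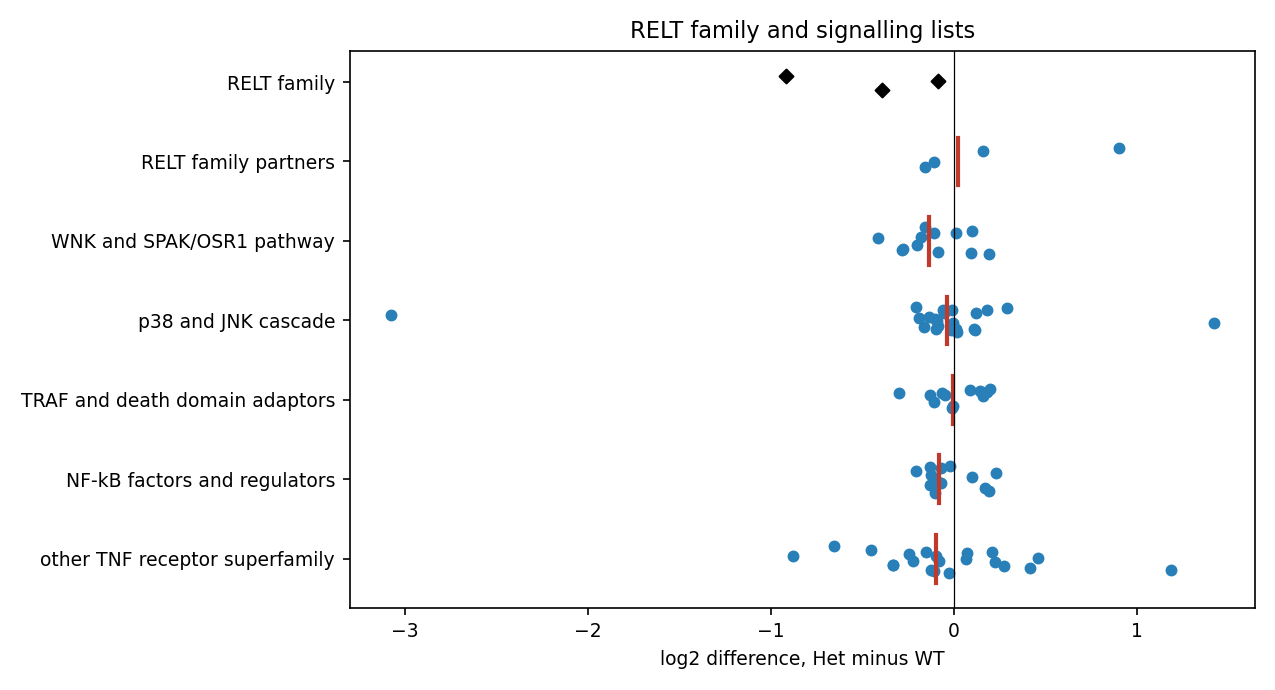
Log2 difference, Het minus WT (horizontal axis), of the RELT family (black diamonds) and of the tested genes of 6 signalling lists (blue points), with the median of each list as a red bar. The medians lie between -0.13 and 0.03, and the outlying points of the p38 and JNK list are the very low genes Mapk10 and Mapk12.

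None of the nearest placed tested genes around Rell1 passed the test. Of the 10 nearest tested genes placed in RefSeq order on each side, none passed by limma, where 0.515% of all tested genes did. Of the 20, 2 had an unadjusted p under 0.05, where 8.19% did. The fitted level in Het was higher in 16 and lower in 4 (median log2 difference 0.15), beside 6261 higher and 5787 lower (median 0.01) over all tested genes. Neighbours are not independent of each other, so nothing is read from this split. The nearest placed tested gene before Rell1, Arap2, averaged 3936 ± 599 in Het and 3502 ± 383 in WT. The nearest placed after Rell1, Tbc1d1, averaged 3502 ± 202 in Het and 3579 ± 129 in WT. Genes left out of that order may lie closer. Lias, a lipoic acid synthase, averaged 811 ± 93.1 in Het and 631 ± 80.05 in WT, and Tlr1, a bacterial lipopeptide receptor, 3483 ± 494 in Het and 2948 ± 302 in WT (limma adjusted p = 0.480 and 0.649). Pcdh7, a protocadherin, was the neighbour with the largest difference, at a low 1 to 7.8 in Het and 12.2 to 59.5 in WT libraries (limma adjusted p = 0.215). Its Het mean was 3.775, below the filter's mean of 10, so it was tested only through its WT values. It is 1 of the 4 lower neighbours and 1 of the 2 with an unadjusted p under 0.05, and nothing is read from its direction.

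Farther along the same chromosome lay Rhoh, a GTPase of blood cells that was named after its values had been seen. In RefSeq order, 15 placed tested genes lay between it and Rell1. Rhoh was at 4407, 3301.7, 3055.9 and 3395.6 in Het 31, 53, 56 and 139, and 5415.7, 5977.4, 5619.4 and 6628.7 in WT 45, 54, 57 and 65, and its log2 difference was -0.75 with SE 0.12 (limma adjusted p = 0.0254). Its adjusted p by limma was 0.0787 to 0.110 without Het 53, Het 139, WT 54, WT 57 or WT 65, so the call was lost without any 1 of these. Of the 737 tested genes placed on chromosome 5, 5 passed (0.678%), beside the 0.515% of all tested genes. The 5 include Rhoh and Rell1 itself, which was chosen for its difference, so no excess is read from this share. Het 31 held the lowest Rell1 and the highest Rhoh value among the Het libraries.

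Around Relt, 1 of 20 neighbours passed by limma, where 0.515% of all tested genes did. Plekhb1, a membrane protein with a pleckstrin homology domain known from retina and nerve, was at 0.9, 8.7, 8.7 and 0 in Het 31, 53, 56 and 139, and 78.2, 117.2, 52.5 and 70.5 in WT 45, 54, 57 and 65 (log2 difference -4.40, SE 0.76, limma adjusted p = 0.0344). This call was lost without any 1 of WT 45, 54, 57 or 65, Het 31 or Het 139. The Het mean of Plekhb1 was 4.575, below the filter's mean of 10, so it was tested only through its WT values. Arhgef17, a guanine nucleotide exchange factor, was at a low 0 to 11.1 in Het and 3.1 to 49.9 in WT libraries, and the gene 3200002M19Rik (Anapc15 in RefSeq, a subunit of the anaphase-promoting complex) averaged 244 ± 6.16 in Het and 193 ± 20.1 in WT (limma adjusted p = 0.646 and 0.609). The Het mean of Arhgef17 was 5.85, below the filter's mean as well, so it too was tested only through its WT values.

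**Figure D5:**
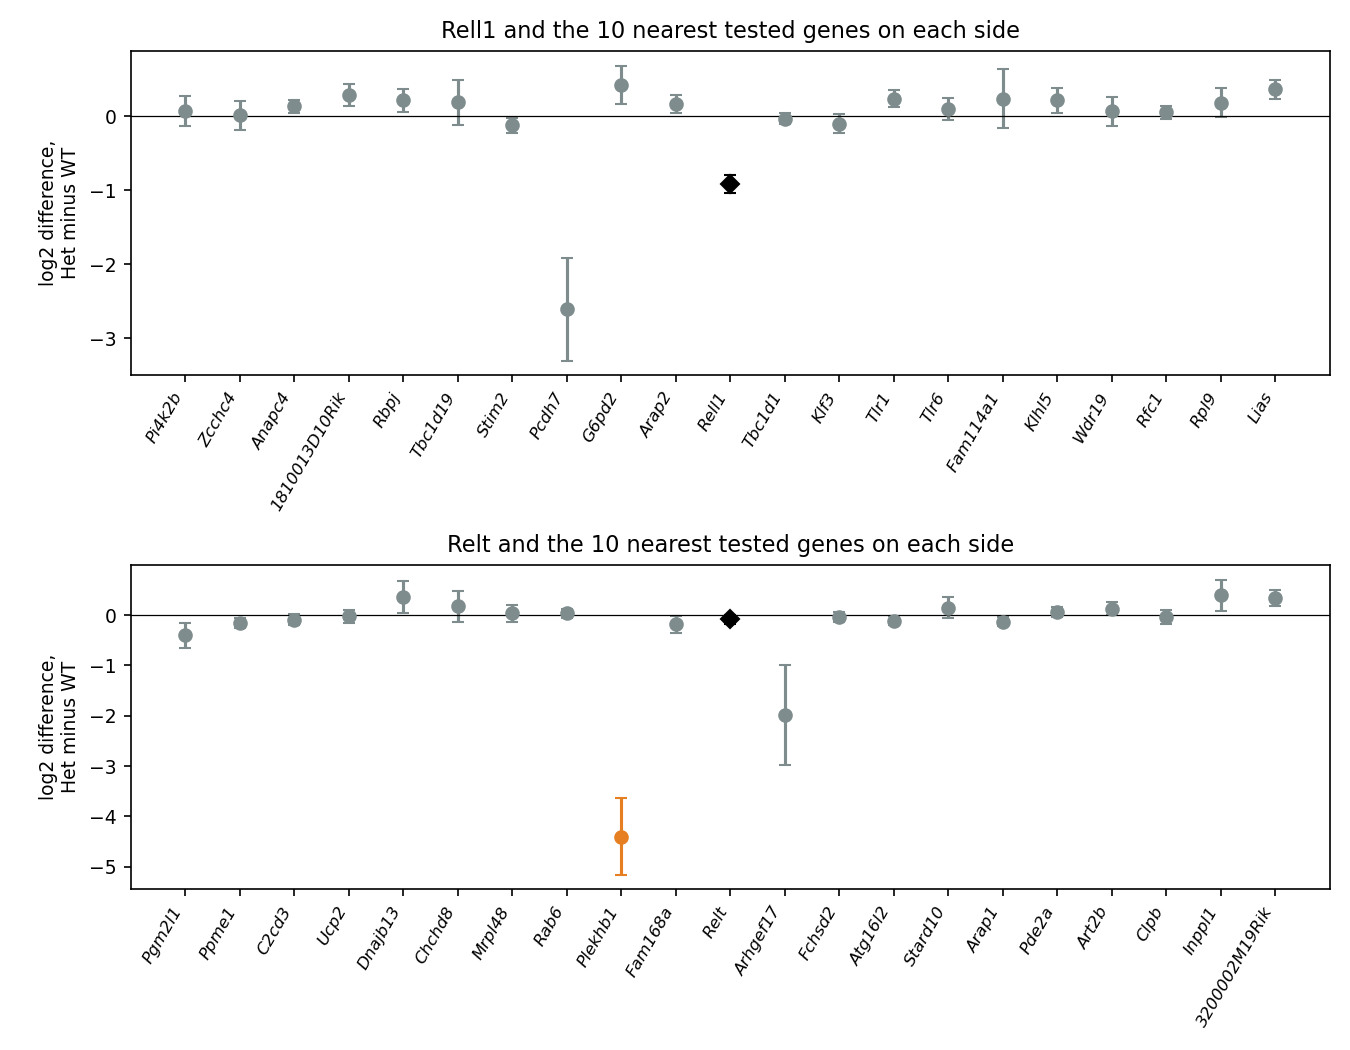
Log2 difference, Het minus WT, with SE (vertical axis) of Rell1 (top) and Relt (bottom), as black diamonds, and of their neighbours. The neighbours are the 10 nearest placed tested genes on each side in RefSeq order (horizontal axis). They are grey where the adjusted p was 0.05 or more and orange where it was under. Rell1 at -0.92 stands below all its neighbours shown other than Pcdh7, a gene with values of 59.5 or less that was tested only through its WT values.

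Most markers of other tissues were lower in Het, and some of them passed by limma, where 0.515% of all tested genes did. A gene was tested if its mean over the 8 libraries was at least 10. Markers near 0 in Het, such as Pclo (Het mean 0.475), Scn9a (0.8) and Pdgfra (2.2), were thus tested only through their WT values. The counts of lower genes below are in part fixed by this filter. In a list of neuron markers 13 of 13 tested genes were lower in Het and 4 passed, and the summed value of the 14 genes found was 673.4 to 1473.8 in Het and 2030.4 to 4622 in WT libraries. In a list of fibroblast and matrix markers 9 of 9 tested genes were lower and 1 passed, with sums of 329 to 1031.7 in Het and 1205.3 to 6642.6 in WT libraries. In a list of Schwann cell and glia markers 7 of 9 tested genes were lower, 4 passed, and Cdh19 was listed at 0 in all Het libraries. Its sums overlapped (19626.9 to 24474.1 in Het, 19445.7 to 22895 in WT) and were carried by Cnp and Mbp, which were high in every library. The epidermis list was lower in 10 of 10 tested genes and none passed. Its sums were 1148.3 to 2316.9 in Het libraries, and 8479.5 and 6393.9 in WT 45 and WT 54, while WT 57 and WT 65, at 1319 and 1255.8, lay within the Het range.

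Markers of other blood cells mostly had a higher fitted level in Het, and none of them passed by limma in any of 5 lists. All 10 tested B cell markers had a higher fitted level, and their sums were 19126.8, 9157.2, 3813.9 and 5650.9 in Het 31, 53, 56 and 139, and 3186.5, 8191.2, 4885.6 and 7487.8 in WT 45, 54, 57 and 65. The genotypes overlapped, with Het 31 far above the other libraries and Het 56 below all WT libraries other than WT 45. Of 9 myeloid markers 8 were higher, with sums of 7506.4, 5009.4, 2600.8 and 6224.7 in Het 31, 53, 56 and 139, and 3456.1, 5103.6, 3749.8 and 3534.1 in WT 45, 54, 57 and 65. The Rell1 values were 489.7, 677.1, 621.7 and 532.7 in the same Het libraries, and 1108.8, 1117.7, 1056.2 and 1070.5 in the same WT libraries. Het 31 had the highest B cell and myeloid sums of all libraries and the lowest Rell1 value. WT 54 had the highest of both sums among the WT libraries and the highest Rell1 value. Of 7 tested NK cell markers 5 had a higher level, with sums of 13569.2 to 18607.7 in Het and 12638.6 to 15350 in WT libraries, and Klra4 was listed at 0 in all libraries. All 6 CD4 T cell markers were higher (sums of 1703.3 to 2617.5 in Het and 1652.2 to 2477.8 in WT libraries), as were 7 of 8 tested platelet and red cell markers (450.6 to 1130.1 in Het and 427.9 to 866.7 in WT libraries), in which Hba-a1 and Hbb-b1 were listed at 0 throughout. The sums of each of these 5 lists overlapped between the genotypes. The part of other cells and of depth in the Rell1 difference was not tested. The naive CD8 T cell markers themselves were split, 8 higher and 4 lower with none past the threshold, with sums of 327255 to 372593 in Het and 314396 to 346991 in WT libraries.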

How the data were processed

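What the authors deposited is a single table with the normalized read count of each gene, a linear signal, for 22609 genes in 8 libraries. The submitters' processing notes list CASAVA, TopHat2, HTSeq, DESeq and the build mm9 and give neither versions nor the step each served, and libraries were stranded and poly(A)-selected by the TruSeq kit, per the labels' protocols. When each library was sorted, the 9513 ranks averaging 100 or more differed by no more than 2% from the rank mean, so the table is quantile normalized. This hides differences in total RNA. It was used as deposited, without a count model.

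Genes with a mean of at least 10 (12048) were fitted with limma 3.58.1 in R 4.3.3 on log2(value + 1), with a trend on mean level, 2-sided, with Benjamini-Hochberg adjustment over all of them and a threshold of 0.05. Fold changes of low genes are understated on this scale. Groups follow the sample titles, and p-values measure the spread between libraries, which may be technical. The fit was tested on simulated data.

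The members, the lists and the rule for naming genes were chosen with earlier results of these data known. Named were the members, up to 3 genes of each list and of each set of neighbours with the smallest unadjusted p, neighbours past the threshold, and the 5 genes most like each member by Pearson's r. Stk39, Fchsd1, Rhoh, Brca1, Arap2, Tbc1d1 and the markers were named outside that rule, after their values had been seen. Of the tested genes, 11666 were placed in RefSeq order and 10864 (90.2%) had a GENCODE M21 exon length. These annotations are of GRCm38, not mm9. A symbol that is also an older name of another gene was left out of the order. Alternatives were other pseudocounts, filters, scalings and fits, and leaving out each library.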

Additional observations from a re-analysis of the deposited data

Results flagged for a closer look

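Of 84 sets of 4 libraries (each named gene in each genotype), 4 (4.76%) had a library that stood well away from the other 3, by a distance of most of the set's range. The distance was set at Dixon's 95% critical value, which by its construction marks about 1 in 20 sets by chance. No RELT family member was among them. Oxsr1 was at 1230 in Het 53 (other Het libraries 958.4 to 964.6). Mapk10 was at 5.5 in Het 56 (other Het libraries 0 to 0.9), a value of few reads. Mapkapk2 was at 2794.9 in WT 65 (other WT libraries 2032.1 to 2152.4). Aldoart1, one of the genes most like Rell2, was at 290.8 in WT 65 (other WT libraries 622.4 to 644.8). It is a close copy of an aldolase gene, so its value is uncertain.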

How the results depend on the processing

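The log2 differences of Rell1, Rell2 and Relt kept their sign under all 17 alternatives. Over leaving out 1 library at a time they ranged from -0.995 to -0.84 for Rell1, from -0.56 to -0.27 for Rell2 and from -0.13 to -0.02 for Relt. The number of genes past the limma threshold was 123 with any value above 0 (9 of them higher in Het) and 14 with a mean of at least 50, against 62 as reported (0 higher), and 11 to 91 when 1 library was left out. It was 45 to 91 under the other settings. Calls higher in Het were also made with no trend (10 of 85, with 54 of the 85 among the 62), with array weights (1 of 91), without Het 56 (3 of 91) and without WT 65 (1 of 16). All of the 14 were among the 62. Rhoh missed the threshold with no trend (limma adjusted p = 0.0669) and with a mean of at least 50 (0.0506). No gene of the signalling lists passed under any alternative. The passing neighbour, Plekhb1, gave a count of 1, which became 0 with a pseudocount of 0.5, with no trend and with a mean of at least 50 (its mean lies below that filter), and 0 to 1 when 1 library was left out. Among the 39 genes named by the rule, 642 of 653 values kept their direction and side of the threshold, 8 were Plekhb1 values that missed it, and 3 (Itga5, Nsun5 and Atg4b) turned to a positive sign without Het 139. Leaving out 1 library at a time, Itga5 ranged from -0.35 to 0.0082, Nsun5 from -0.19 to 0.055 and Atg4b from -0.11 to 0.0010. No paired analysis was possible because the genotypes share no replicate number. Depth limits what can be said of genes with values of a few units, such as Mapk10, Pcdh7, Arhgef17 and Plekhb1 in Het libraries.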
